A study of Mus musculus with 6 samples.

Results

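Genes of the cell cycle and of DNA replication were followed across 3 subsets of intraepithelial lymphocytes (IEL), a T cell population lodged between the epithelial cells of the mouse small intestine. The list named 39 genes: 16 of DNA synthesis and its checkpoint, 18 of mitosis and its entry, and 5 cyclins and kinases of the G1 phase. Each gene was represented by 1 Affymetrix probe set, a group of short oligonucleotides against 1 transcript, which had to carry that gene's symbol and no other. Where several did, the one with the highest mean log2 signal over the 6 arrays was used. In this way 36 of the 39 genes had a probe set, of 8251 genes in the whole table, and 35 passed the filter on low signal, of 6109 genes tested. Mcm6 was the gene that did not pass, Tyms lay only on probe sets shared with the locus Tyms-ps, and Ccnb1 and Bub1b were not matched. The filter asked for a signal above 56.4 on at least 2 arrays. Of the 35 genes, 34 were above it on all 6 arrays and Bub1 on 5.

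All cells came from untreated C57BL/6 mice under 8 weeks of age and were used fresh after sorting, and no genotype other than the strain was given. TCRab CD8aa cells carry the alpha beta T cell receptor and the CD8 alpha alpha homodimer, TCRab CD8ab cells the same receptor type and the CD8 alpha beta heterodimer, and TCRgd CD8aa cells the gamma delta receptor and the CD8 alpha alpha homodimer. In each of 2 experiments, held on separate occasions, all 3 subsets were sorted from 1 pool of 20 mice and total RNA of each was put on 1 array, so each subset has 2 arrays from different pools. Titles of the last subset spell its receptor TCRgb, and the spelling TCRgd of the source field is used here.

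A cell that divides first passes G1, where D type cyclins with Cdk4 and cyclin E with Cdk2 open the way to S phase. In S phase the MCM helicase unwinds DNA, ribonucleotide reductase and thymidine kinase supply nucleotides, and primase, Pcna, Fen1 and Lig1 build the new strands. Cyclin A and B with Cdk1 then drive mitosis, in which motors, kinases and checkpoint proteins separate the chromosomes. Most resting lymphocytes express few of the S phase and mitosis genes, and their messages accumulate as cells enter and complete the cycle.

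On the label check, Cd8b1, the CD8 beta chain, had a signal of 17647 and 27591 on the TCRab CD8ab arrays of experiments 1 and 2, against 29.5 and 182 in TCRab CD8aa and 28.1 and 763 in TCRgd CD8aa. Between 7 and 8 of 8 T cell label genes were above the filter level on each array. Median signal per array was 83.4 to 113.4. The experiments differed in RNA quality: in experiment 1 the 3′ to 5′ signal ratio lay between 1.41 and 1.76 for actin and between 3.38 and 5.2 for Gapdh, while experiment 2 had ratios of 40.4 to 52.2 and 22.3 to 29.6. The TCRgd CD8aa array of experiment 2 stood apart in enterocyte genes, with a summed signal of 27439 over 16 genes (15 above the filter level) against 1357 to 2741 (7 to 14 above it) on the other 5. Results of that subset are therefore given for each experiment. Markers listed for crypt epithelium, the dividing cells of the gut lining, summed to 1230 on that array and to 216 to 687 on the others over 9 genes. Tff3 alone made up 999 of the 1230, and only 2 of the 9 genes, Tff3 and Prom1, were above the filter level there. That sum therefore rests mostly on 1 gene. The stem cell genes Lgr5 and Ascl2 were below the filter level on all 6 arrays.

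TCRab CD8ab had the highest signal of the 3 subsets in both experiments for 28 of the 35 genes, against 18.6% of all 6109 genes. By role, this held for 15 of 16 mitosis genes, 11 of 14 replication genes and 2 of 5 G1 genes. The exceptions were the mitosis gene Cenpa, the replication genes Pcna, Mcm3 and Mcm4, and the G1 genes Ccnd2, Ccnd3 and Ccne1. In experiment 1 alone the count was 31 (34.6% of all genes), and in experiment 2 alone it was also 31 (47.8%). For 11 genes both TCRab CD8ab arrays lay above the 4 others (6.42% of all genes): Rrm1, Rrm2, Prim1, Lig1, Cdc6, Cdk1, Cks2, Aurka, Aurkb, Bub1 and Cdc20. In RNA from sorted populations, fewer dividing cells and less RNA of these genes per cell cannot be told apart. Some markers of other cells were also highest in TCRab CD8ab in 1 or both experiments, and others were not. Of 12 B and plasma cell genes, Pax5 was highest in TCRab CD8ab in both experiments (49.0 and 193 against 15.4 to 84.2), and the summed signal was 2743 and 2068 in TCRab CD8ab, 4936 and 2240 in TCRab CD8aa, and 4575 and 6336 in TCRgd CD8aa. In experiment 1 Jchain had 678 in TCRab CD8ab against 61.8 and 84.3. In experiment 2 the B cell genes Ms4a1 (407 against 85.8 and 297), Cd79a (206 against 50.7 and 69.6) and Fcer2a (109 against 23.7 and 43.7) were highest in TCRab CD8ab. Others of the 12 genes went the other way. Ighm was lowest in TCRab CD8ab in both experiments (1265 against 3905 and 3401, and 262 against 1105 and 648), as were Spib and Sdc1. Jchain was lowest there in experiment 2 (101.5 against 211 and 4023). The crypt sum was 687 and 328 in TCRab CD8ab, 420 and 216 in TCRab CD8aa, and 322 and 1230 in TCRgd CD8aa. Of the TCRab CD8ab sums, Cd44 alone gave 309 and 115. Cd44 had 56.6 and 21.3 in TCRab CD8aa, and 70.3 and 44.2 in TCRgd CD8aa. Tff3 alone gave 999 of the 1230. TCRab CD8ab was highest in both experiments for 1 of 9 crypt genes (Cd44), 2 of 13 myeloid, 1 of 6 erythroid, 1 of 11 mast cell and granulocyte, 0 of 16 enterocyte and 0 of 3 CD4 T cell genes. The share of all 6109 genes tested was 18.6%, while these lists also hold genes that did not pass the filter. The part of these cells in the cell cycle values was not tested.

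**Figure D1:**
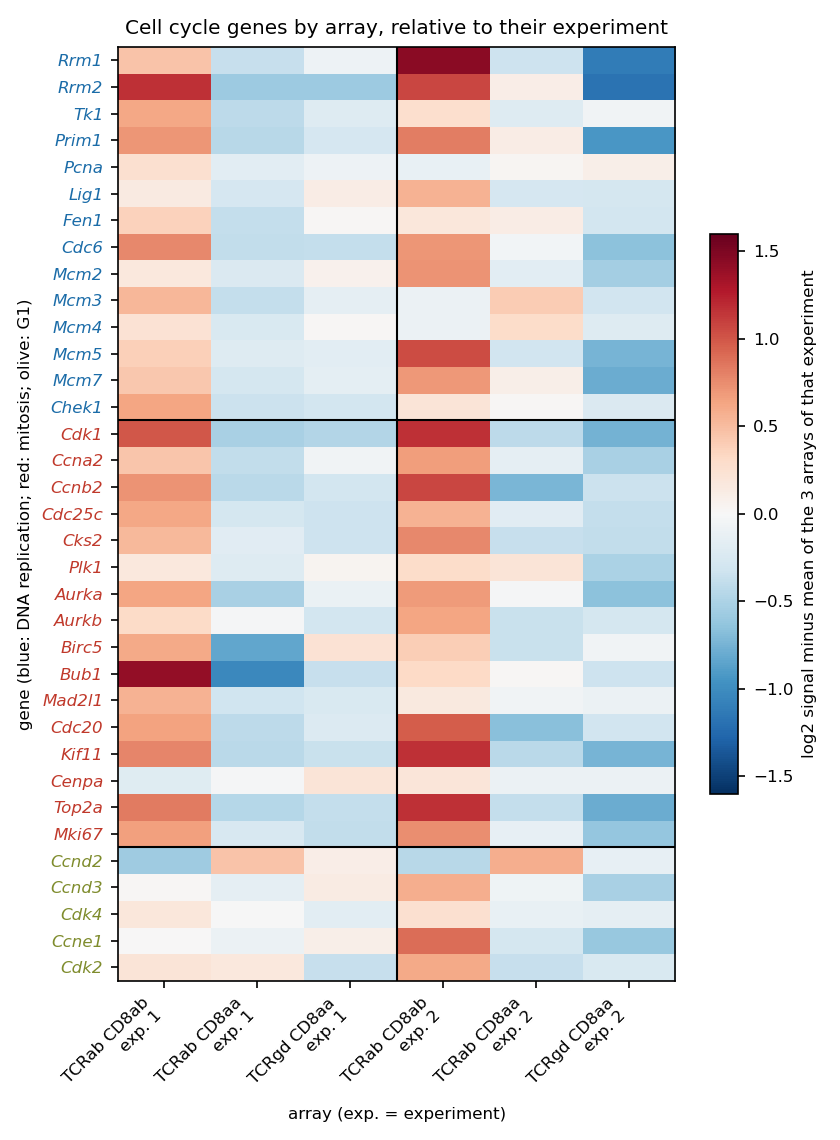
Log2 signal of the 35 tested cell cycle genes on each of the 6 arrays, relative to the mean of the 3 arrays of the same experiment, with genes grouped as DNA replication, mitosis and G1. The columns of TCRab CD8ab are the highest of their experiment for 28 of the 35 genes in both experiments.

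None of these differences between subsets passed the test. In limma on all 6 arrays, 0 of the 35 genes had an adjusted p under 0.05 in any of the 3 comparisons, and 0% of the 8299 probe sets did, with a smallest adjusted p among the cell cycle genes that rounded to 1. A count of 0 there carries no information on the cell cycle genes, since no probe set of any gene passed. With the experiment as a block, which takes out the difference between the 2 pools, 0 of the 35 genes passed as well, while 0.819% of all probe sets passed between TCRab CD8aa and TCRab CD8ab, 0.554% between TCRgd CD8aa and TCRab CD8ab and 0.0241% between TCRgd CD8aa and TCRab CD8aa. At an unadjusted p under 0.05 without the block, 2 of the 35 genes were lower in TCRab CD8aa than in TCRab CD8ab (1.17% of all probe sets) and 3 were lower in TCRgd CD8aa (0.892%). None was higher (1.08% and 1.13% of all probe sets). With the block 14 genes were lower in each comparison (5.58% and 4.37% of all probe sets), and Ccnd2 was higher in TCRab CD8aa and none in TCRgd CD8aa (4.51% and 3.83%). Between the 2 CD8aa subsets no gene had an unadjusted p under 0.05 in either direction, without the block (0.145% of all probe sets lower and 0.265% higher in TCRgd CD8aa) or with it (0.831% and 1.24%). In the blocked fit on only the 4 arrays of TCRab CD8aa and TCRab CD8ab, 3 genes passed (Cdk1, Ccnb2 and Top2a). The values that follow are therefore descriptions of these 6 arrays, and pairs of values are given in the order experiment 1, experiment 2.

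Mitosis genes showed the widest gap between TCRab CD8aa and TCRab CD8ab. Over the 16 genes the median log2 difference, TCRab CD8aa minus TCRab CD8ab, was −0.92 (−0.98 in experiment 1 and −0.84 in experiment 2), beside −0.06 over all genes tested. Of the 16, 15 were lower in TCRab CD8aa in both experiments (30.1% of all genes), and 5 were lower by at least 1 log2 unit in both (2.9% of all genes). Those 5 were Cdk1, Ccnb2, Cdc20, Kif11 and Top2a. Over all 35 genes, both TCRab CD8aa arrays lay below both TCRab CD8ab arrays for 16 (12.5% of all genes) and above them for 0 (10.3%).

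Cdk1, the kinase that starts mitosis, had a signal of 622 and 1201 in TCRab CD8ab, 219 and 398 in TCRab CD8aa, and 226 and 316 in TCRgd CD8aa. Both TCRab CD8ab arrays lay above the other 4, and the CD8aa subsets overlapped. The log2 difference of TCRab CD8aa from TCRab CD8ab was −1.55 ± 0.35 (SE, n = 2 per subset), a 2.93-fold higher mean in TCRab CD8ab, with a limma adjusted p of 0.108 with the block. For TCRgd CD8aa it was −1.69 ± 0.35, or 3.23-fold, with a limma adjusted p of 0.102 with the block.

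Ccnb2, a B type cyclin that activates Cdk1, reached 1497 and 4257 in TCRab CD8ab, 674 and 1229 in TCRab CD8aa, and 738 and 1595 in TCRgd CD8aa. TCRab CD8ab was highest within each experiment, although its array of experiment 1 was below the TCRgd CD8aa array of experiment 2. At −1.47 ± 0.30 between TCRab CD8aa and TCRab CD8ab (n = 2), it had the smallest blocked adjusted p of the 35 genes in limma, 0.0771. Ccna2, cyclin A, had 563 and 1745 in TCRab CD8ab, 318 and 998 in TCRab CD8aa, and 402 and 764 in TCRgd CD8aa, with nearly the same log2 gap to TCRab CD8aa in both experiments (−0.83 and −0.81).

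Cdc20, the activator of the ubiquitin ligase that ends mitosis, had 730.1 and 1201 in TCRab CD8ab, 351 and 384 in TCRab CD8aa, and 402 and 494 in TCRgd CD8aa. The 2 TCRab CD8ab arrays did not overlap with the others. Its log2 difference was −1.35 ± 0.33 for TCRab CD8aa and −1.07 ± 0.33 for TCRgd CD8aa, with limma adjusted p of 0.155 and 0.357 with the block (n = 2). Without the block it had the smallest unadjusted p of the 35 genes between TCRab CD8aa and TCRab CD8ab in limma, 0.0361.

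Kif11, the motor that pushes the spindle poles apart, had 284 and 1304 in TCRab CD8ab, 123 and 431 in TCRab CD8aa, and 130 and 346 in TCRgd CD8aa. Top2a, the topoisomerase that untangles sister chromosomes, had 649 and 3467 in TCRab CD8ab, 265 and 1187 in TCRab CD8aa, and 280 and 893 in TCRgd CD8aa. For both genes TCRab CD8ab was highest in each experiment and the order of the CD8aa subsets differed between experiments. All 3 arrays of experiment 2 were above all 3 of experiment 1, and the subsets therefore overlapped across experiments. The log2 differences of TCRab CD8aa from TCRab CD8ab were −1.40 for Kif11 and −1.42 for Top2a.

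**Figure D2:**
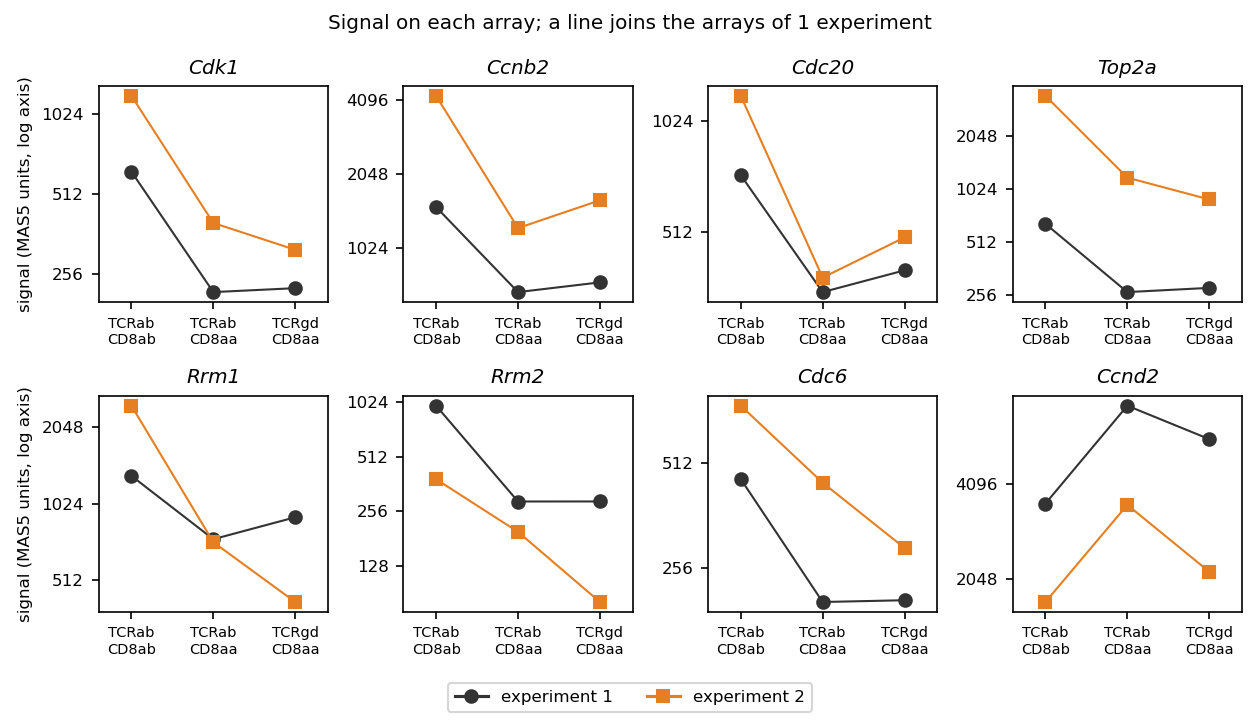
Signal of selected cell cycle genes on each array, on a log axis, by subset and experiment (1 point per array). TCRab CD8ab is highest within each experiment for Cdk1, Cdc20 and Top2a, and lowest for Ccnd2.

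The other mitosis genes varied more. Mki67, the antigen Ki-67 of cycling cells, had 1225 and 2961 in TCRab CD8ab, 653 and 1613 in TCRab CD8aa, and 591 and 1152 in TCRgd CD8aa. Birc5 (survivin), a part of the chromosomal passenger complex, had 283 and 190.0 in TCRab CD8ab, 104 and 113 in TCRab CD8aa, and 217 and 139 in TCRgd CD8aa. Both TCRab CD8aa arrays lay below the other 4. TCRab CD8aa differed by −1.10 ± 0.44 from TCRab CD8ab (limma adjusted p = 0.451 with the block, n = 2).

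The mitotic kinase Aurka had 208 and 207 in TCRab CD8ab, 93.8 and 128 in TCRab CD8aa, and 125 and 81.9 in TCRgd CD8aa. Its difference was −1.04 ± 0.49 for TCRgd CD8aa (limma adjusted p = 0.640 with the block, n = 2). Aurkb, the kinase of the passenger complex, had 429 and 559 in TCRab CD8ab, 343 and 282 in TCRab CD8aa, and 282 and 297 in TCRgd CD8aa. Both aurora kinases were thus above the other 4 arrays on both TCRab CD8ab arrays.

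Cks2, a small subunit of cyclin-dependent kinases, had 1377 and 1587 in TCRab CD8ab, 849.7 and 722 in TCRab CD8aa, and 766 and 708 in TCRgd CD8aa. It differed by −1.01 ± 0.30 between TCRgd CD8aa and TCRab CD8ab (limma adjusted p = 0.337 with the block, n = 2). The checkpoint kinase Bub1 had 254 and 195 in TCRab CD8ab, 46.9 and 160.0 in TCRab CD8aa, and 74.5 and 124 in TCRgd CD8aa. On this probe set the gap of Bub1 to TCRab CD8aa was −2.44 log2 units in experiment 1 and −0.29 in experiment 2. A further Bub1 probe set had 60.1 and 168 in TCRab CD8ab and 4.6 and 103.5 in TCRab CD8aa. TCRgd CD8aa had 14.2 and 94.9 on it. There the TCRab CD8ab array of experiment 1 lay below every array of experiment 2. The size of the Bub1 gap therefore depends on the probe set.

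Cenpa, Plk1 and Mad2l1 had smaller gaps on the probe sets used. Cenpa, the centromere histone, had 1265 and 3142 in TCRab CD8ab, 1433 and 2552 in TCRab CD8aa, and 1662 and 2552 in TCRgd CD8aa, with opposite orders in the 2 experiments. Plk1, a mitotic kinase, had 294 and 796 in TCRab CD8ab, 227 and 751 in TCRab CD8aa, and 271 and 457 in TCRgd CD8aa. A further Plk1 probe set, above the filter level on all 6 arrays, had 289 and 174.5 in TCRab CD8ab, 241 and 87.9 in TCRab CD8aa, and 229 and 94.6 in TCRgd CD8aa. Another, nearer the filter level, had 128 and 33.6 in TCRab CD8ab, 55.8 and 15.9 in TCRab CD8aa, and 59.3 and 33.7 in TCRgd CD8aa. The size of the Plk1 gap therefore depends on the probe set. Mad2l1, a spindle checkpoint protein, differed between TCRab CD8aa and TCRab CD8ab by −0.87 in experiment 1 and −0.21 in experiment 2. Cdc25c, the phosphatase that activates Cdk1, had 120 and 317 in TCRab CD8ab, 64.0 and 192 in TCRab CD8aa, and 62.0 and 167 in TCRgd CD8aa.

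In the promoters, many mitosis genes share short motifs. The motifs searched were chosen for this list of genes, so their matches are a description and not independent support. Windows of 300 bases (250 before to 50 after the annotated start, RefSeq, GRCm38.p6) were at hand for 30 of the 35 genes and were searched on both strands. The motif named CHR (cell cycle genes homology region) was taken as TTTGAA or TTCGAA, the CCAAT box as CCAAT, and an E2F site as TTTCCCGC or TTTGGCGC. Other forms of an E2F site were not searched. No match of one motif overlapped one of another in these windows. Of 13 mitosis genes with a window, 10 held both a CHR and a CCAAT match (76.9%, against 8.61% of 27025 genes in the table), 11 held CCAAT (84.6%, against 41.1%) and 0 held E2F (1.8% of all genes). The 10 were Cdk1, Ccnb2, Plk1, Aurka, Bub1, Cdc20, Kif11, Cenpa, Top2a and Mki67, so the pair occurred both in genes with a wide gap between subsets and in Cenpa, whose order differed between experiments. The count of 0 for E2F is close to the share of all genes and carries no information on the mitosis genes. Shown are the 180 bases before the start of 4 of the 5 genes that were lower by at least 1 log2 unit in both experiments, 5′ to 3′ on the gene's strand, with motif matches on either strand in capitals. These are matches of letters, not shown binding sites.

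Cdk1 (chr10:69352913-69353092, minus strand): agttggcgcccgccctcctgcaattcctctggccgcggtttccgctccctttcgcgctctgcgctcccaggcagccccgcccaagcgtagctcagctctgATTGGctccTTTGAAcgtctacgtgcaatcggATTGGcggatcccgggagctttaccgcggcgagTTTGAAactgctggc
Cdc20 (chr4:118437344-118437523, minus strand): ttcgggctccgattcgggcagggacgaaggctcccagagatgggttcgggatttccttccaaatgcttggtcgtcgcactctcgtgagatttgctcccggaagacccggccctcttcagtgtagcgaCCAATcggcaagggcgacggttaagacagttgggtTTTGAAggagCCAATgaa
Kif11 (chr19:37376202-37376381, plus strand): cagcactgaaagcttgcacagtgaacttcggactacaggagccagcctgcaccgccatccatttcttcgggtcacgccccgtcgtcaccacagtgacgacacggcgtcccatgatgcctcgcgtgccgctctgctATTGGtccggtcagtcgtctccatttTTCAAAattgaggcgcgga
Top2a (chr11:99024190-99024369, minus strand): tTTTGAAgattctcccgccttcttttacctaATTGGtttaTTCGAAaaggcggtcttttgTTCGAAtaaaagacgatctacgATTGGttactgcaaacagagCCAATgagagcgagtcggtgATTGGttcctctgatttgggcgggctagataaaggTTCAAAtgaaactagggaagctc

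Replication genes had a median nearer 0. The median log2 difference of TCRab CD8aa from TCRab CD8ab over 14 genes was −0.66 (−0.79 and −0.65 by experiment). Of the 14, 11 were lower in both experiments (30.1% of all genes), though none by at least 1 log2 unit in both (2.9%). For TCRgd CD8aa the median was −0.68 (−0.57 and −1.05), and 13 of the 14 were lower in both experiments (28.4% of all genes).

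Rrm1 and Rrm2 encode the large and small subunits of ribonucleotide reductase, which makes deoxynucleotides. Rrm1 had 1318 and 2489 in TCRab CD8ab, 743 and 723 in TCRab CD8aa, and 906 and 421 in TCRgd CD8aa. Rrm2 had 978 and 385 in TCRab CD8ab, 289.8 and 197 in TCRab CD8aa, and 290.0 and 80.9 in TCRgd CD8aa. Both TCRab CD8ab arrays lay above the other 4 for each gene. The log2 difference of Rrm2 was −1.36 ± 0.42 for TCRab CD8aa and −2.00 ± 0.42 for TCRgd CD8aa, with limma adjusted p of 0.306 and 0.118 with the block (n = 2). For Rrm1 it was −1.31 ± 0.45 and −1.55 ± 0.45, with limma adjusted p of 0.384 and 0.306 with the block (n = 2).

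Prim1, the catalytic primase subunit, had 359 and 276 in TCRab CD8ab, 162 and 172 in TCRab CD8aa, and 183 and 82.1 in TCRgd CD8aa. Cdc6, which loads the MCM helicase at origins, had 461 and 747 in TCRab CD8ab, 205 and 450.2 in TCRab CD8aa, and 208 and 293 in TCRgd CD8aa. Both again had TCRab CD8ab above the other 4 arrays, narrowly in the case of Cdc6. For TCRgd CD8aa, Prim1 differed by −1.36 ± 0.46 and Cdc6 by −1.25 ± 0.36 (limma adjusted p = 0.410 and 0.306 with the block, n = 2). The flap endonuclease Fen1 had 423 and 79.4 in TCRab CD8ab, 250.1 and 75.9 in TCRab CD8aa, and 333 and 57.4 in TCRgd CD8aa. Its gap to TCRab CD8ab was −0.76 and −0.06 for TCRab CD8aa and −0.34 and −0.47 for TCRgd CD8aa. Lig1, the ligase that joins Okazaki fragments, had 514 and 563 in TCRab CD8ab, 387 and 319 in TCRab CD8aa, and 506 and 314 in TCRgd CD8aa.

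Tk1, thymidine kinase, had 651 and 367 in TCRab CD8ab, 321 and 263 in TCRab CD8aa, and 369 and 292 in TCRgd CD8aa. Tyms, thymidylate synthase, is not among the tested genes; its 2 probe sets shared with Tyms-ps had 285 and 365 in the one and 366 and 446 in the other in TCRab CD8ab, against 121 to 357 on all arrays of the CD8aa subsets. TCRab CD8ab was again highest within each experiment for both shared probe sets. Chek1, the kinase of the replication checkpoint, had 328 and 761 in TCRab CD8ab, 168 and 667 in TCRab CD8aa, and 174 and 560.1 in TCRgd CD8aa.

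The tested subunits of the MCM helicase differed in their order of subsets. Mcm5 had 2472 and 1185 in TCRab CD8ab, 1641 and 466 in TCRab CD8aa, and 1686 and 341 in TCRgd CD8aa. Mcm7 had 1634 and 461 in TCRab CD8ab, 994 and 302 in TCRab CD8aa, and 1090.1 and 164 in TCRgd CD8aa. Mcm2, with 1068 and 769 against 808 and 415 in TCRab CD8aa and 993 and 323 in TCRgd CD8aa, showed the same order of TCRab CD8ab above both. Mcm3 and Mcm4 did so in experiment 1 only: in experiment 2, Mcm3 had 960.0 in TCRab CD8ab and 1365 in TCRab CD8aa, and Mcm4 had 1807 and 2368. Mcm6 had at most 29.4 on any array and was not tested. Pcna, the sliding clamp, ranged from 5359 to 8010 over the 6 arrays, with TCRab CD8ab highest in experiment 1 and lowest in experiment 2.

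Of 13 replication genes with a promoter window, 4 held an E2F match (30.8%, against 1.8% of all genes: Cdc6, Mcm3, Mcm5 and Mcm7), 8 held CCAAT (61.5%) and 3 held CHR (23.1%, against 21.7% of all genes). The windows of Rrm2, Cdc6 and Mcm5 are shown in the same way to set beside those of the mitosis genes; the E2F match lies in capitals in Cdc6 and Mcm5.

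Rrm2 (chr12:24708074-24708253, plus strand): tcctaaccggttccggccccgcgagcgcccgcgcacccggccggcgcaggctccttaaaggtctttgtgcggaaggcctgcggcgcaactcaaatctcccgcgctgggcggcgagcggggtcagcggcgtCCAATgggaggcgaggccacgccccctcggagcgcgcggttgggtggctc
Cdc6 (chr11:98907971-98908150, plus strand): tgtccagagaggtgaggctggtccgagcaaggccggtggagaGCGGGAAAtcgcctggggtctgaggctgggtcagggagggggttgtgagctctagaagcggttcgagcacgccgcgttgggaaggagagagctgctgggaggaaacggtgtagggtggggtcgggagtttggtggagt
Mcm5 (chr8:75109329-75109508, plus strand): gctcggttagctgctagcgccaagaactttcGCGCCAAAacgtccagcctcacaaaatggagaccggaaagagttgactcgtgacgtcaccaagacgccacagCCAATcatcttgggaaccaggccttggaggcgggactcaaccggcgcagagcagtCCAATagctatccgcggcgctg

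**Figure D3:**
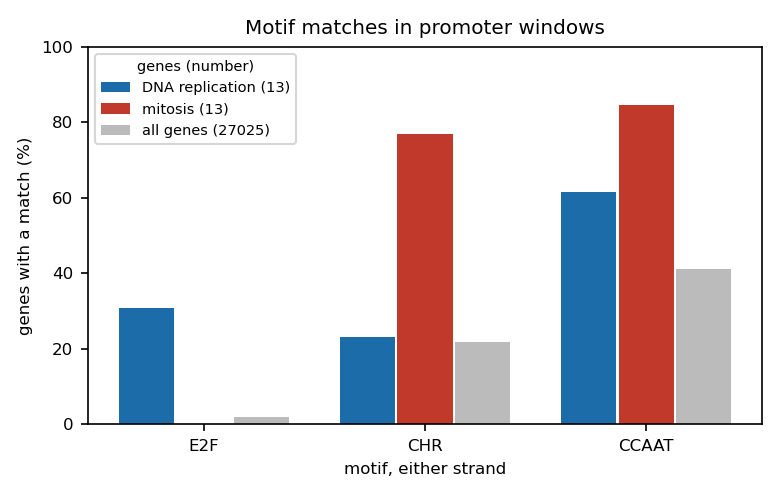
Percent of genes whose promoter window holds each motif, for 13 mitosis genes, 13 replication genes and all 27025 genes of the promoter table. CHR is in 76.9% of mitosis genes and 21.7% of all genes, and E2F in 30.8% of replication genes and 1.8% of all genes.

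G1 genes were mixed. Ccnd2, cyclin D2, had the reverse order, with 3546 and 1729 in TCRab CD8ab, 7248 and 3513 in TCRab CD8aa, and 5679 and 2156 in TCRgd CD8aa. It was the only one of the 35 genes lowest in TCRab CD8ab in both experiments (14.3% of all genes) and the only one higher in TCRab CD8aa by at least 1 log2 unit in both (2.11% of all genes). The log2 difference of TCRab CD8aa was 1.03 ± 0.28, 1.03 in experiment 1 and 1.02 in experiment 2, with a limma adjusted p of 0.219 with the block (n = 2). Ccnd3, cyclin D3, had 1508 and 1738 in TCRab CD8ab, 1354 and 1101 in TCRab CD8aa, and 1631 and 803 in TCRgd CD8aa.

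Ccne1, cyclin E1, had 289 and 482 in TCRab CD8ab, 267 and 214 in TCRab CD8aa, and 304 and 170.4 in TCRgd CD8aa. Cdk2, its kinase, had 483 and 377 in TCRab CD8ab, 472 and 193 in TCRab CD8aa, and 324 and 209 in TCRgd CD8aa. For both, the gap between TCRab CD8aa and TCRab CD8ab was in experiment 2, at −1.18 for Ccne1 and −0.97 for Cdk2, against −0.11 and −0.03 in experiment 1. Cdk4, the partner of D type cyclins, had 2260.1 and 1188 in TCRab CD8ab, 1990 and 917 in TCRab CD8aa, and 1773 and 898 in TCRgd CD8aa. A further Cdk4 probe set had 466.5 and 177.4 in TCRab CD8ab, 364 and 61.2 in TCRab CD8aa, and 323.7 and 104.8 in TCRgd CD8aa. The size of the Cdk4 gap in experiment 2 therefore depends on the probe set.

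The comparisons of TCRgd CD8aa and of TCRab CD8aa with TCRab CD8ab share the TCRab CD8ab arrays, and their values are set side by side here. Over the 35 genes the median log2 difference was −0.76 for TCRgd CD8aa and −0.75 for TCRab CD8aa, beside −0.05 and −0.06 over all genes tested. In each comparison 30 of the 35 genes were lower in both experiments (28.4% and 30.1% of all genes). By experiment the TCRgd CD8aa median was −0.61 and −1.11. In TCRgd CD8aa, 7 genes were lower by at least 1 log2 unit in both experiments (1.96% of all genes): Rrm2, Cdc6, Cdk1, Ccnb2, Kif11, Top2a and Mki67. Both TCRgd CD8aa arrays lay below both TCRab CD8ab arrays for 13 genes (10.6% of all genes) and above them for 0 (9.31%). The array of experiment 2 is the one with a summed enterocyte signal of 27439; in experiment 1, where that sum was 1750 in TCRgd CD8aa and 2147 in TCRab CD8ab, the median for mitosis genes was −0.85 and that for replication genes −0.57. The part of the enterocyte signal in the experiment 2 values was not tested.

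Between TCRgd CD8aa and TCRab CD8aa, the 35 genes had a median log2 difference of −0.11 (0.13 and −0.36 by experiment), beside −0.00 over all genes tested. Only 5 were lower in TCRgd CD8aa in both experiments (25.1% of all genes) and 5 were higher (23.3%), and the differences ran from −0.64 for Rrm2 to 0.68 for Birc5. For 3 genes both TCRgd CD8aa arrays lay above both TCRab CD8aa arrays (7.14% of all genes) and for 0 below them (6.35%). Birc5 was higher in TCRgd CD8aa in both experiments, by 1.06 and 0.30, and had the smallest unadjusted p of the 35 genes in limma without the block, 0.257. Rrm2 had 289.8 and 290.0 in experiment 1, and 197 in TCRab CD8aa and 80.9 in TCRgd CD8aa in experiment 2. These 2 subsets were therefore not told apart by the cell cycle genes on 2 arrays each.

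**Figure D4:**
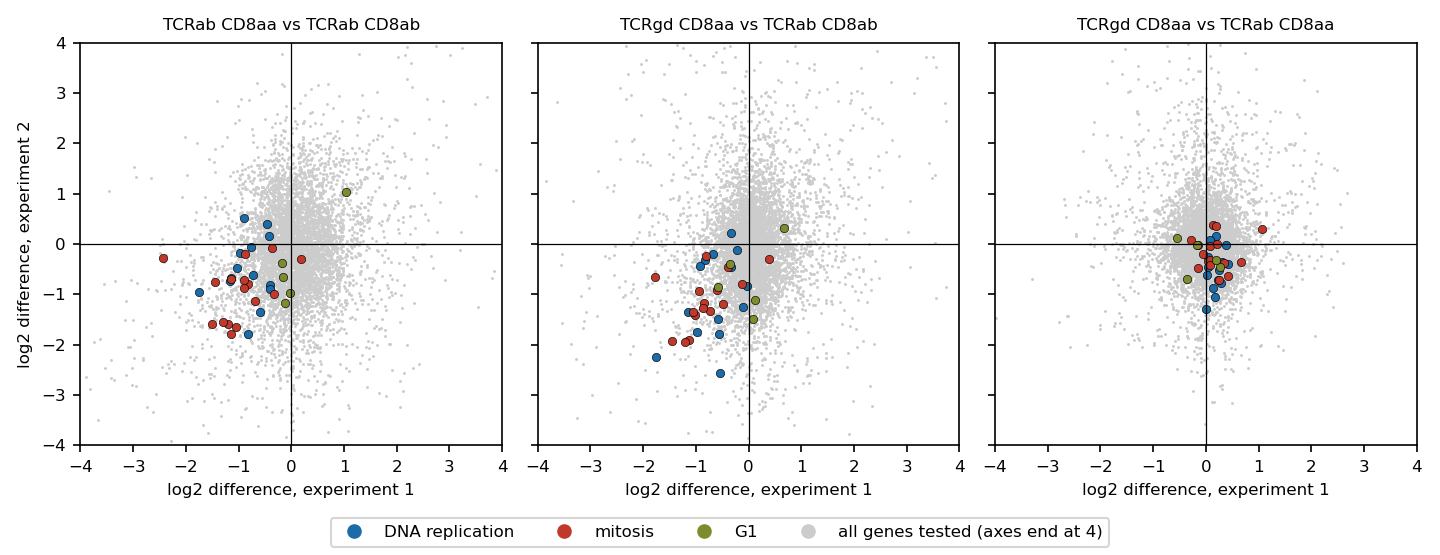
Log2 difference of each tested cell cycle gene between subsets, experiment 2 against experiment 1, with 1 point per gene coloured by role, all genes tested in grey (axes end at 4) and 1 panel per comparison. In both comparisons with TCRab CD8ab 30 of the 35 points lie below 0 in both experiments, and between the 2 CD8aa subsets 5 do.

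Wider lists of the same pathways, which hold none of the 39 genes, also had medians below 0. Of 42 other replication genes tested, 24 were lower in TCRab CD8aa than in TCRab CD8ab in both experiments and 3 were higher, with a median of −0.55. Of 36 other mitosis genes, 26 were lower and 1 higher, with a median of −0.70, and 10 were lower by at least 1 log2 unit in both. Of all genes, 30.1% were lower in both experiments, 23.3% higher and 2.9% lower by at least 1 log2 unit. None of the genes in these 2 lists, or in the lists of regulators and brakes, passed with or without the block in any comparison. Kif23, a motor of cell division, had 709 and 1439 in TCRab CD8ab, 208 and 489 in TCRab CD8aa, and 215 and 548 in TCRgd CD8aa (−1.66 ± 0.33 for TCRab CD8aa, limma adjusted p = 0.0664 with the block, n = 2). The clamp loader subunit Rfc4 had 368 and 574 in TCRab CD8ab, 135 and 219.8 in TCRab CD8aa, and 221 and 198 in TCRgd CD8aa.

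Regulators that promote the cycle and those that restrain it were mixed. Of 12 promoting genes tested, 6 were lower in TCRab CD8aa in both experiments (30.1% of all genes) and 1 was higher (23.3%). The transcription factor Myb had 930.5 and 185 in TCRab CD8ab, and 49.3 to 65.8 on the 4 arrays of the CD8aa subsets, a log2 difference of −3.00 ± 0.66 for TCRab CD8aa (limma adjusted p = 0.106 with the block, n = 2). Myb was above the filter level on 3 arrays, both of TCRab CD8ab and that of TCRgd CD8aa in experiment 2. Cyclin D1, Ccnd1, went the other way at low signal, with 40.5 and 57.4 in TCRab CD8ab, 83.3 and 151 in TCRab CD8aa, and 94.9 and 142 in TCRgd CD8aa.

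Of 20 inhibitors and brakes, 7 were lower and 5 higher in TCRab CD8aa in both experiments, with a median of −0.09. These counts are near the shares of all genes (30.1% lower and 23.3% higher). Gadd45b, a stress-induced growth arrest gene, had 2836 and 2260.2 in TCRab CD8ab, 1226 and 263 in TCRab CD8aa, and 1224 and 617 in TCRgd CD8aa (−2.16 ± 0.43 for TCRab CD8aa, limma adjusted p = 0.0677 with the block, n = 2). Cdkn3, a phosphatase that acts on Cdk2 and Cdk1, had 130 and 232 in TCRab CD8ab, 48.4 and 97.1 in TCRab CD8aa, and 11.8 and 89.9 in TCRgd CD8aa.

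Between the 2 experiments cell cycle genes passed the test, which here sets 1 pool of mice against 1 other. Its p-values take the 3 subsets of a pool as replicates and hold no spread between pools, so they describe these 2 pools. With the experiment as a term in limma, 9 of 16 mitosis genes rose from experiment 1 to experiment 2 on the probe sets used. None (0) fell at an adjusted p under 0.05, where 13.7% of all probe sets rose and 20.4% fell. Those 9 include Plk1, of which a further probe set fell. Of 14 replication genes, 1 rose and 5 fell, and of 5 G1 genes 2 fell. With no filter on low signal, 2 mitosis genes rose and 0 replication genes fell, and without the TCRab CD8aa array of experiment 2, 5 mitosis genes rose. The median log2 difference, experiment 2 minus experiment 1, was 1.04 for mitosis genes and −0.41 for replication genes. Within subsets it was 1.09, 1.29 and 0.75 for mitosis genes and −0.16, −0.53 and −0.90 for replication genes, in the order TCRab CD8aa, TCRab CD8ab, TCRgd CD8aa.

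The mitosis genes that rose, on the probe sets used, were Top2a (2.08), Kif11 (1.81), Mad2l1 (1.75), Cdc25c (1.47), Ccna2 (1.40), Plk1 (1.30), Mki67 (1.18), Ccnb2 (1.16) and Cenpa (0.92), as log2 differences over the 3 subsets. Mad2l1 stood at 1005 to 1837 on the arrays of experiment 1 and at 3924 to 4656 on those of experiment 2, with no overlap (adjusted p = 0.00101 in limma). The replication gene that rose was Chek1 (1.63), and those that fell were Fen1 (−2.22), Mcm7 (−2.09), Mcm5 (−1.73), Rrm2 (−1.25) and Mcm2 (−1.02). Mcm7 stood at 994 to 1634 in experiment 1 and at 164 to 461 in experiment 2 (adjusted p = 0.00108 in limma). Ccnd2 (−1.16) and Cdk4 (−1.01) fell among G1 genes.

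Probe sets of 1 gene did not always go the same way between experiments. Of the other 2 Plk1 probe sets, 1 fell by 1.15 (limma adjusted p = 0.0341) and 1 had a log2 difference of −1.52 (limma adjusted p = 0.0766), where the one used rose by 1.30, so no direction is given for Plk1 as a gene. In addition, a further Cdc25c probe set differed by −0.20. For Bub1 the one used differed by 0.71 (limma adjusted p = 0.279) and a further one rose by 2.29 (limma adjusted p = 0.0126). The pool of mice, the occasion and the 3′ to 5′ ratio of the RNA all changed with the experiment and cannot be told apart, and the positions of the probes along the transcripts were not used here. Of the wider lists, 13 of 42 other replication genes rose and 5 fell, and 13 of 36 other mitosis genes rose and 4 fell, with medians of 0.46 and 0.80. Of all probe sets, 13.7% rose and 20.4% fell.

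**Figure D5:**
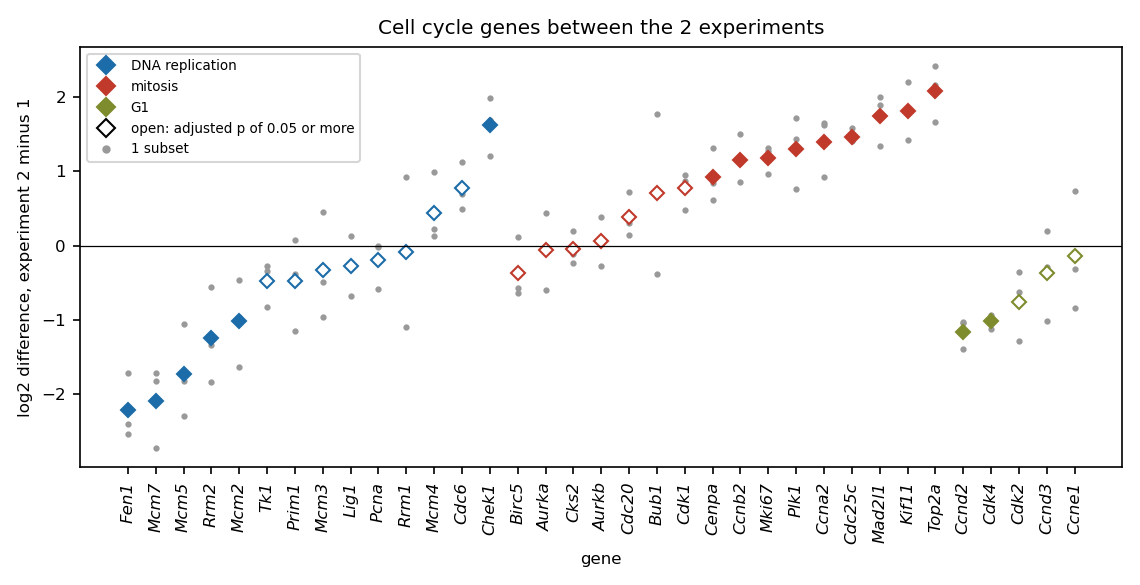
Log2 difference between experiments (2 minus 1) for each tested cell cycle gene, with the limma estimate over the 3 subsets as a diamond, filled at an adjusted p under 0.05, and each subset as a grey point. Filled diamonds lie above 0 for 9 mitosis genes and Chek1, and below 0 for 5 replication and 2 G1 genes. Among the 9 is Plk1, of which a further probe set, not drawn, fell.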

How the data were processed

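Total RNA from 6 sorted samples (3 subsets, 2 experiments) was hybridised to Affymetrix arrays. Per the submitters' processing notes the deposited values are signal intensity computed with MAS5, whose version is not stated, in linear units. Each array had a 2% trimmed mean of about 500.4. The further scaling factors were 0.999915 to 1.00006.

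Values under the 20th percentile (15.3, log2 3.94) were set to it before log2 was taken. Of 12488 probe sets, 8299 were above the 40th percentile (56.4) on at least 2 arrays and were tested. Symbols came from the platform annotation. No 2 arrays shared more than 45 equal values.

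Comparisons used all 6 arrays in limma 3.58.1 (R 4.3.3, eBayes with trend) and Benjamini-Hochberg adjustment over all probe sets tested. Both the fit without a block and that with the experiment as a block are given. Subsets with the same number came from 1 pool of mice on 1 occasion. Their deviations from the subset means correlated across probe sets with r of 0.618, 0.713 and 0.603. Standard errors are limma's moderated values with the block, pooled over subsets. Without the block, p-values between subsets measure the spread between pools, not mice. With the block, they measure how far the differences between subsets varied from pool to pool. Those between experiments hold no spread between pools, as each experiment is 1 pool. The number of arrays limits the precision. The fitting steps were tested on simulated data, where estimates were recovered, but the fit without the block called none of the changed probe sets, and the fit with the block missed most of the smallest changes and called a few unchanged probe sets.

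The members, the wider gene lists, the motifs and the tests were chosen with earlier results of these data known. Tests are printed for genes past the threshold in either fit and, per comparison, for genes from the 4 smallest unadjusted p among replication and among mitosis genes, the 2 smallest among G1 genes and the 2 smallest of each wider list. Signals and differences without a test are given for any listed gene. Alternatives were quantile normalization, no further scaling, other floors, an added constant, other filters, eBayes without the trend, only the arrays compared, an adjusted p under 0.10, averaging the probe sets of a gene and each array left out.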

Additional observations from a re-analysis of the deposited data

How the results depend on the processing

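Without a block, no probe set passed in any comparison under the alternatives run, so the count of 0 cell cycle genes there says nothing about stability. With the replicate block, between TCRab CD8aa and TCRab CD8ab, 0 genes became 3 with only the 4 arrays compared (Cdk1, Ccnb2 and Top2a), 1 at an adjusted p under 0.10 (Ccnb2), and 0 to 3 when an array was left out: 2 without TCRab CD8ab replicate 1 (Rrm1 and Ccnb2), 3 without TCRgd CD8aa replicate 1 (Cdk1, Ccnb2 and Top2a) and 2 without TCRgd CD8aa replicate 2 (Cdk1 and Ccnb2). Between TCRgd CD8aa and TCRab CD8ab the blocked count ran from 0 to 3 when an array was left out: 1 without TCRab CD8ab replicate 1 (Rrm1) and 3 without TCRgd CD8aa replicate 1 (Rrm1, Rrm2 and Top2a). The median between TCRab CD8aa and TCRab CD8ab was −0.64 after quantile normalization, −0.67 with the probe sets of a gene averaged, and −0.96 to −0.68 with an array left out. Between TCRgd CD8aa and TCRab CD8ab it was −1.03 to −0.71 with an array left out. The median between the CD8aa subsets ran from −0.23 to 0.08. No gene named with a test changed sign against TCRab CD8ab. Between the CD8aa subsets, Mki67 was 0.03 over the mean of its probe sets, and these ranges with an array left out crossed 0: Ccnb2 −0.30 to 0.81, Ccnd2 −1.23 to 0.17, Cdc6 −0.87 to 0.26, Cdk2 −0.86 to 0.44, Cdkn3 −2.16 to 0.39, Gadd45b −0.50 to 1.72, Mki67 −0.97 to 0.34, Msh6 −0.48 to 1.80, Prim1 −1.02 to 0.13 and Rrm2 −1.56 to 0.28. The experiment term called 9 mitosis genes higher, but 2 with no filter on low signal and 5 without TCRab CD8aa replicate 2. It called 5 replication genes lower, but 3 after quantile normalization, 0 with no filter, and 3 without either TCRgd CD8aa array. The cause was not tested. With an array left out, the lone array of that subset was assumed to vary like those of the other subsets.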
